A study of Mus musculus with 16 samples.

Results

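The surfactant proteins and napsin were followed as a set of 5 genes named by symbol: Sftpa1, Sftpb, Sftpc, Sftpd and Napsa. The array annotation gives them 8 probe sets. Of these, 4 lay in the stretches of the deposited table where labels could be placed on their values, 1 each for Sftpa1, Sftpc, Sftpd and Napsa, so 4 of the 5 genes have values. The placed stretches hold 14300 of 45101 probe sets and name 9866 genes, of which 7276 were tested. The single probe set of Sftpb lies outside those stretches, and Sftpb was not analysed here.

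Pulmonary surfactant is a film of phospholipid and protein that alveolar type II cells make, store in lamellar bodies and secrete onto the alveolar surface. Its small hydrophobic proteins, SP-B (gene Sftpb) and SP-C (gene Sftpc), spread and stabilise the lipid film. SP-A (gene Sftpa1) and SP-D (gene Sftpd) are collectins, soluble lectins that bind sugars on microbes and allergens. Napsin A (gene Napsa) is an aspartic protease of type II cells that takes part in the processing of the SP-B precursor.

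Whole lungs of mice were profiled on Affymetrix arrays, 16 arrays in 4 groups of 4, collected on day 22, the exposures having ended 1 day earlier. The groups were the line titled BALB-RAG after ovalbumin (OVA, an allergen from egg white), the same line after phosphate-buffered saline (PBS), and the inbred strain BALB/c after OVA and after PBS. The titles give "RAG" with no allele. Rag genes are needed to rearrange antigen receptor genes, and mice without them lack mature T and B cells. The sources used here give no dose, route, adjuvant or age, and do not say whether replicates are separate animals. The p-values therefore reflect only how far these samples spread, which can be technical variation.

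Some arrays titled BALB-RAG held lymphocyte transcripts. Cd3d, a chain of the T cell receptor complex, had log2 intensities of 2.50, 7.03, 2.32 and 2.38 on replicates 1 to 4 labelled BALB-RAG after OVA, against 6.88 to 8.45 in BALB/c after OVA. Its range on the PBS arrays was 4.88 to 5.93 for the label BALB-RAG and 4.98 to 6.15 for BALB/c. Igha, the IgA heavy chain, read 3.98, 10.97, 3.59 and 5.52 on replicates 1 to 4 labelled BALB-RAG after OVA and 8.45 to 10.79 on the 4 PBS arrays of that label, where BALB/c arrays read 6.66 to 7.86. Of the 8 arrays labelled BALB-RAG, 5 had Cd3d and 6 had Igha above log2 4, the background level used throughout. Groups were kept as titled, and the members' differences that rest on the OVA group of that label are also given without its replicate 2, the OVA array of that label with Cd3d. Both transcripts were above log2 4 on every PBS array of that label.

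Gene names here rest on a realignment of labels to values. Among probe sets of the same gene in different stretches, with both above log2 6, the median correlation over arrays was 0.589 (389 pairs) for the stretch that holds Sftpa1, Sftpd and Napsa when its values were taken 47 rows below the label. It was 0.001 (272 pairs) for that stretch as deposited and -0.028 (278 pairs) at 47 rows above. The stretch with Sftpc, moved by 64 rows, gave 0.698 (222 pairs). With these shifts the rows taken for Sftpa1, Sftpc and Sftpd each held the strongest mean signal among the 301 rows around them, and the row for Napsa ranked 12 of 301. As deposited, the labels of Sftpa1 and Sftpd stand beside mean log2 values of 2.52 and 3.14, under log2 4.

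In RefSeq GRCm38.p6, whose build the array annotation does not name, the collectin genes Sftpa1 (chr14:41131788-41136373) and Sftpd (chr14:41172212-41185198) lie near each other, with 35839 bases from the end of the first to the start of the other. Genes between them were not looked for. Sftpc lies on the same chromosome at chr14:70520941-70524081, and Napsa on chromosome 7 at chr7:44572445-44586846. The promoter of Sftpa1 is shown because it is the one promoter of the measured members in the sequence table used here. The 250 bases upstream of its start (chr14:41131538-41131787, plus strand) were searched on both strands for motifs of regulators of lung epithelium. The motif list was chosen after the data were examined. Capitals mark CTCAAG, a core bound by NKX2-1, the homeodomain factor of lung epithelium:
Sftpa1 promoter: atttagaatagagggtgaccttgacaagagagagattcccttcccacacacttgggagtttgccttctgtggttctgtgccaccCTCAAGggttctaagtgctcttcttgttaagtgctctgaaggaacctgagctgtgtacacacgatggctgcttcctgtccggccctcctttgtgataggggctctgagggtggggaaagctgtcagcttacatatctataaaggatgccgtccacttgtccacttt
CTCAAG starts at position -166 and a TATAAA at -30, counted from the annotated start. The forkhead motif TGTTTAC and the AP-1 motif TGANTCA do not occur in these letters. Of 32851 promoter windows of the same kind, 13.3% hold CTCAAG, 12.4% TATAAA, 3.17% TGTTTAC and 6.75% TGANTCA, so the matches are common and describe letters, not binding.

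Sftpd, the collectin SP-D, was the member called higher after OVA in BALB/c. It read 13.41, 13.33, 13.23 and 13.26 on replicates 1 to 4 of BALB/c after OVA, against 13.10, 12.99, 12.54 and 12.54 in BALB/c after PBS. No OVA array was as low as any PBS array, and replicates 3 and 4 of the PBS group were the lowest. The difference was 0.52 ± 0.16 on the log2 scale (SE, n = 4 each, 95% interval 0.17 to 0.86), a 1.43-fold higher level (limma, adjusted p = 0.0404). In whole tissue, a change in the number of cells that make a transcript and a change of its level per cell cannot be told apart.

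In the line labelled BALB-RAG, Sftpd read 12.85, 12.67, 12.92 and 12.80 after OVA, against 12.83, 12.42, 12.11 and 12.43 after PBS. The groups overlapped through replicate 1 after PBS. The difference of 0.36 ± 0.16 (SE) had a limma adjusted p of 0.621, and leaving out replicate 2 of the OVA arrays gave 0.41. The response in the arrays labelled BALB-RAG minus that in BALB/c was -0.15 ± 0.23 (95% interval -0.64 to 0.33, limma adjusted p = 0.785), so the responses of the lines were not shown to differ. Leaving out single arrays moved this value between -0.27 and -0.03.

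After OVA, Sftpd was lower on the arrays labelled BALB-RAG than in BALB/c, with no overlap. Means were 12.81 ± 0.10 and 13.31 ± 0.08 (SD, n = 4 each), a difference of -0.50 ± 0.16 (SE), or 70.8% of the BALB/c level (limma, adjusted p = 0.0338). After PBS the means were 12.45 ± 0.30 for the label BALB-RAG and 12.79 ± 0.29 in BALB/c (SD, n = 4 each). These overlapped and differed by -0.34 ± 0.16 (SE, limma adjusted p = 0.311). In order of mean level, BALB/c after OVA stood first, then BALB-RAG after OVA, BALB/c after PBS and BALB-RAG after PBS. Neighbours in this order overlapped, except that BALB/c after OVA lay above every array of the other groups.

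The Sftpd calls lie near the threshold in this fit of the 4 group means, which holds no block for replicates. The rise in BALB/c lost its call without any of 9 single arrays: replicates 1, 2, 3 and 4 of BALB/c after OVA (limma adjusted p = 0.105, 0.0914, 0.0548 and 0.0591), replicates 3 and 4 of BALB/c after PBS (0.126 and 0.128), replicates 1 and 4 labelled BALB-RAG after OVA (0.0522 and 0.0532) and replicate 2 labelled BALB-RAG after PBS (0.0502). Over all fits without a single array the rise stayed between 0.43 and 0.62. The lower level after OVA lost its call without replicate 1, 2 or 4 labelled BALB-RAG (limma adjusted p = 0.0597, 0.0844 and 0.0702) or replicate 1 or 2 of BALB/c (0.0905 and 0.0746). Over all fits without a single array that difference stayed between -0.53 and -0.45. Fitting the BALB/c arrays alone gave a limma adjusted p of 0.068 for the rise.

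**Figure D1:**
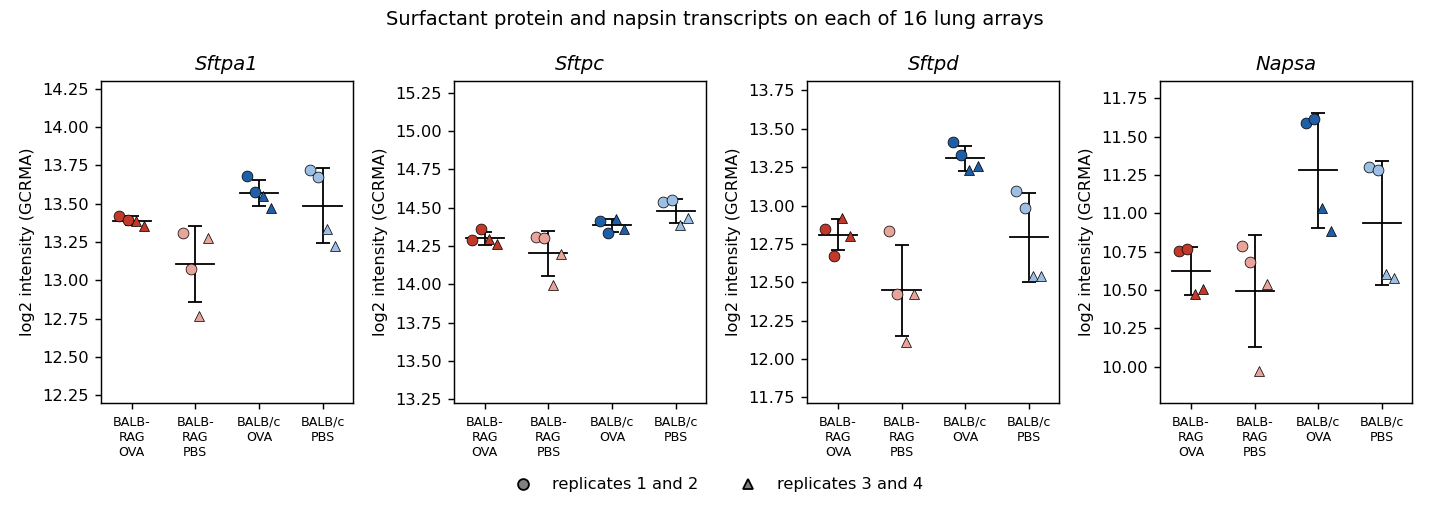
Log2 intensity (GCRMA, a background correction and normalisation for Affymetrix arrays) of Sftpa1, Sftpc, Sftpd and Napsa on each of 16 arrays, with the mean and SD of each group of 4 in black, circles for replicates 1 and 2 and triangles for replicates 3 and 4. Each axis spans the same log2 range, and Sftpd in BALB/c after OVA (13.23 to 13.41) lies above every other group.

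Sftpa1, the collectin SP-A, whose gene lies near Sftpd, was not called in any comparison. It read 13.68, 13.57, 13.55 and 13.47 in BALB/c after OVA, against 13.72, 13.67, 13.33 and 13.23 in BALB/c after PBS. The groups overlapped, with PBS replicates 1 and 2 above most OVA arrays and PBS replicates 3 and 4 below all of them. The difference was 0.08 ± 0.14 (SE, 95% interval -0.22 to 0.38, limma adjusted p = 0.791).

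Arrays labelled BALB-RAG gave Sftpa1 values of 13.42, 13.39, 13.39 and 13.35 after OVA, against 13.31, 13.08, 12.77 and 13.28 after PBS. Every OVA array lay above every PBS array, by a narrow gap. The difference was 0.28 ± 0.14 (SE, limma adjusted p = 0.676). The difference between the lines was -0.18 ± 0.14 (SE) after OVA, where all 4 arrays labelled BALB-RAG lay below BALB/c, and -0.38 ± 0.14 (SE) after PBS, where the groups overlapped (limma adjusted p = 0.413 and 0.172). The order of means was BALB/c after OVA, BALB/c after PBS, BALB-RAG after OVA and BALB-RAG after PBS, and only the last neighbouring pair did not overlap.

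Sftpc, the hydrophobic protein SP-C and a defining transcript of type II cells, varied least. Its values over all 16 arrays spanned 1.47-fold, with a pooled SD within groups of 0.09 log2 units against a median of 0.29 over all tested genes. It read 14.41, 14.34, 14.43 and 14.36 in BALB/c after OVA, against 14.53, 14.55, 14.39 and 14.43 in BALB/c after PBS. Those groups overlapped, and the difference was -0.09 ± 0.10 (SE, 95% interval -0.31 to 0.13, limma adjusted p = 0.655). Its signal is high, and the linearity of the array at that level was not tested.

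For Sftpc, arrays labelled BALB-RAG read 14.29, 14.36, 14.29 and 14.26 after OVA, against 14.31, 14.30, 14.00 and 14.20 after PBS. The groups overlapped, with PBS replicate 3 the lowest of all 16 arrays. After PBS all 4 arrays labelled BALB-RAG lay below BALB/c, by -0.27 ± 0.10 (SE, limma adjusted p = 0.175), which was not called. After OVA the difference between the lines was -0.08 ± 0.10 (SE, limma adjusted p = 0.619). The order of means was BALB/c after PBS, BALB/c after OVA, BALB-RAG after OVA and BALB-RAG after PBS, with each neighbouring pair overlapping.

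Napsa, the napsin A gene, was lower on the arrays labelled BALB-RAG than in BALB/c after OVA. It read 10.75, 10.76, 10.47 and 10.50 on replicates 1 to 4 labelled BALB-RAG, against 11.59, 11.62, 11.03 and 10.89 in BALB/c. The groups did not overlap, although replicates 1 and 2 were higher than replicates 3 and 4 in both. The difference was -0.66 ± 0.23 on the log2 scale (SE, n = 4 each), or 63.4% of the BALB/c level (limma, adjusted p = 0.0484). This call was lost without any of 8 single arrays: replicate 2 or 4 labelled BALB-RAG after PBS (limma adjusted p = 0.0541 and 0.0583), replicates 1, 2, 3 or 4 labelled BALB-RAG after OVA (0.0668, 0.0617, 0.113 and 0.111) and replicate 1 or 2 of BALB/c after OVA (0.146 and 0.149). Over all fits without a single array the differences ran from -0.79 to -0.55.

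After PBS, Napsa read 10.78, 10.68, 9.97 and 10.54 on the arrays labelled BALB-RAG, against 11.30, 11.28, 10.60 and 10.58 in BALB/c. The groups overlapped, with a difference of -0.45 ± 0.23 (SE, limma adjusted p = 0.366). This was -0.27 without replicate 3 labelled BALB-RAG, and from -0.57 to -0.27 over all fits without a single array. The change after OVA was 0.13 ± 0.23 (SE) on the arrays labelled BALB-RAG and 0.34 ± 0.23 (SE) in BALB/c, where neither was called and both pairs of groups overlapped (limma adjusted p = 0.992 and 0.382). In order of mean, BALB/c after OVA came before BALB/c after PBS, BALB-RAG after OVA and BALB-RAG after PBS, and each neighbouring pair overlapped.

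Counted together, 1 of the 4 measured members was called higher after OVA in BALB/c, where 15.5% of all tested genes were called, 8.73% higher and 6.78% lower. With the label BALB-RAG, limma called 0 of 4 after OVA, beside 0.165% of all genes (0.137% higher, 0.0275% lower), and 1 of 4 (Sftpd) had an unadjusted p under 0.05, beside 7.72%. The lines differed after OVA in 2 of 4 members, which were called lower, where 23.8% of all genes were called, 11.6% higher and 12.1% lower. After PBS limma called 0 of 4, beside 3.9% of all genes (1.97% higher, 1.94% lower), and 3 of 4 (Sftpa1, Sftpc and Sftpd) had an unadjusted p under 0.05, beside 15.9%. For the difference of the responses limma called 0 of 4, beside 8.49% of all genes (3.86% higher, 4.63% lower), and 0 of 4 had an unadjusted p under 0.05, beside 21.3%.

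Without replicate 2 labelled BALB-RAG after OVA, which carried lymphocyte transcripts, limma called 0 of 4 members between the lines after OVA, beside 21.6% of all genes in that fit. The differences were then -0.18 for Sftpa1, -0.11 for Sftpc, -0.45 for Sftpd and -0.70 for Napsa (limma adjusted p = 0.474, 0.574, 0.0844 and 0.0617), so each kept its sign. The differences after OVA within that label became 0.28 for Sftpa1, 0.08 for Sftpc, 0.41 for Sftpd and 0.08 for Napsa, and 0 of 4 were called by limma, beside 0.577% of all genes. The differences of the responses became 0.20 for Sftpa1, 0.17 for Sftpc, -0.11 for Sftpd and -0.26 for Napsa, with 0 of 4 called, beside 7.92%.

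By overlap of arrays, 1 of 4 members had all OVA arrays higher in BALB/c (Sftpd), where this held for 10.4% of all genes and the opposite for 9.24%. With the label BALB-RAG it was 1 of 4 (Sftpa1), beside 2.67% higher and 1.95% lower. All 4 arrays labelled BALB-RAG lay below BALB/c for 3 of 4 members after OVA (Sftpa1, Sftpd and Napsa), beside 13.6% lower and 13.3% higher, and for 1 of 4 after PBS (Sftpc), beside 5.44% lower and 4.21% higher. The median difference of the members was 0.21 after OVA in each line, against medians over all genes of 0.02 with the label BALB-RAG and 0.00 in BALB/c. Comparing the lines, it was -0.34 after OVA and -0.36 after PBS, against 0.01 and -0.01 over all genes. Comparisons within a line and between lines share arrays, so their values are not separate evidence.

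**Figure D2:**
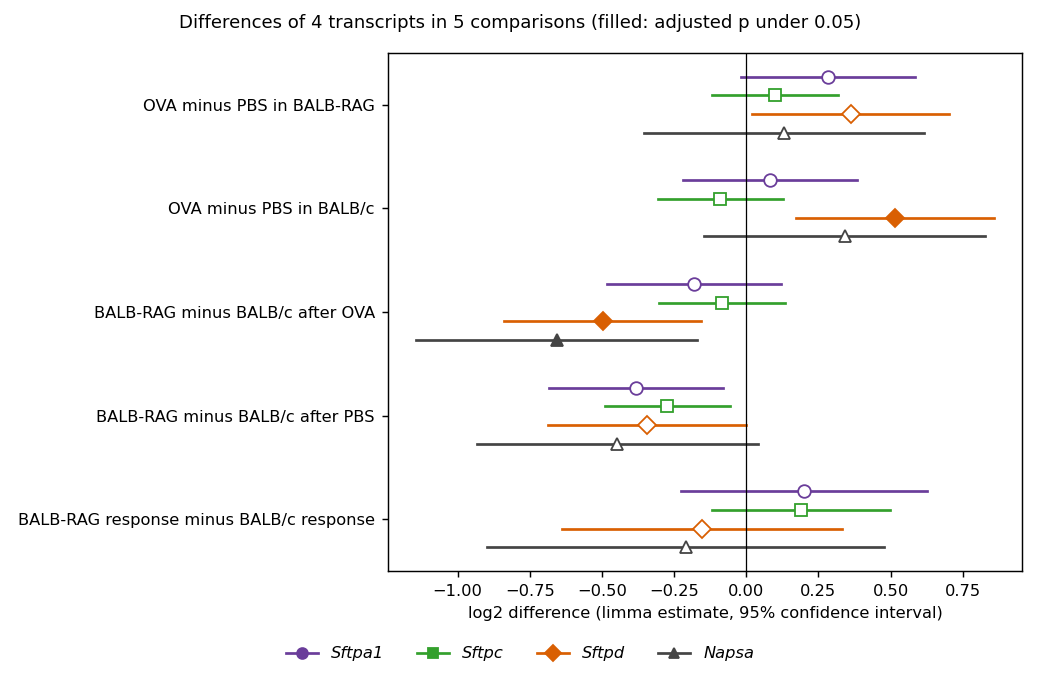
Log2 differences of Sftpa1, Sftpc, Sftpd and Napsa in the 5 comparisons with 95% confidence intervals from limma, filled where the adjusted p was under 0.05. The filled points are Sftpd after OVA in BALB/c (0.52) and, between the lines after OVA, Sftpd (-0.50) and Napsa (-0.66).

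Replicates 1 and 2 differed from replicates 3 and 4 in several members, a split seen in the values that the labels do not call a batch. Napsa was lower on replicates 3 and 4 in every group without overlap, by -0.27 on the arrays labelled BALB-RAG after OVA, -0.48 after PBS, -0.64 in BALB/c after OVA and -0.70 after PBS. In BALB/c, Sftpd was lower on replicates 3 and 4 by -0.13 after OVA and -0.50 after PBS, while the replicates of the arrays labelled BALB-RAG overlapped. Sftpa1 dropped by 0.42 between these replicates in BALB/c after PBS, and Sftpc by 0.21 in the PBS group labelled BALB-RAG.

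The differences were therefore also computed within each pair of replicates. For Sftpd after OVA in BALB/c they were 0.33 ± 0.17 on replicates 1 and 2 and 0.70 ± 0.16 on replicates 3 and 4 (SE, limma adjusted p = 0.254 and 0.0487). For Sftpd between the lines after OVA they were -0.61 and -0.38 (limma adjusted p = 0.0359 and 0.205), and for Napsa -0.84 ± 0.12 and -0.47 ± 0.21 (SE, limma adjusted p = 0.00282 and 0.218). The direction of these called differences was the same in both pairs. With this split as a block over all 16 arrays, limma gave adjusted p = 0.0111 for Sftpd in BALB/c, and 0.00965 for Sftpd and 0.000764 for Napsa between the lines after OVA. Napsa between the lines after PBS then had an adjusted p of 0.0348, which the fit without the block did not call. For Napsa after OVA in BALB/c the limma adjusted p was 0.0544 with the block and 0.382 without it, not called in either. Within each pair of replicates its OVA arrays lay above its PBS arrays in BALB/c. The difference was 0.31 on replicates 1 and 2 and 0.37 on replicates 3 and 4.

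**Figure D3:**
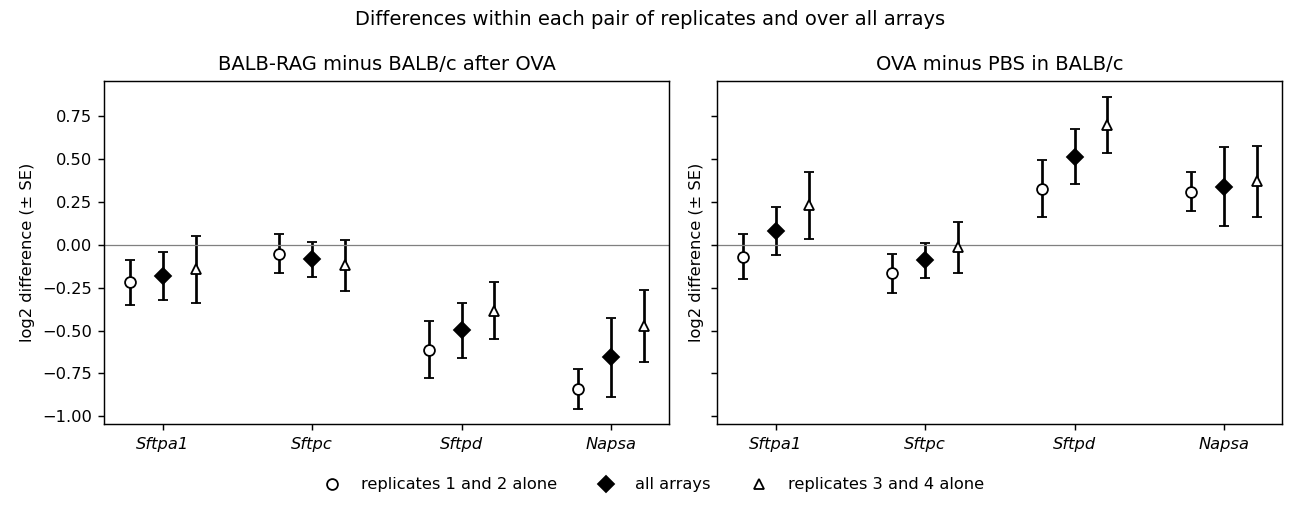
Log2 differences with their SE for each member on replicates 1 and 2 alone (circles), over all arrays (filled diamonds) and on replicates 3 and 4 alone (triangles), between the lines after OVA at the left and after OVA in BALB/c at the right. Sftpd and Napsa keep their sign in both pairs, while Sftpa1 in BALB/c is -0.07 on replicates 1 and 2 and 0.23 on replicates 3 and 4.

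Set against Sftpc on the same array and centred on the mean of BALB/c after PBS, a ratio chosen after the values were seen, log2 Sftpd was 0.68, 0.68, 0.48 and 0.58 on replicates 1 to 4 of BALB/c after OVA, against 0.25, 0.12, -0.16 and -0.21 in BALB/c after PBS. The BALB/c groups did not overlap in this ratio. With the label BALB-RAG it was 0.24, -0.01, 0.31 and 0.22 after OVA, against 0.20, -0.19, -0.20 and -0.09 after PBS, and these groups overlapped through replicate 2 after OVA and replicate 1 after PBS. All 4 values labelled BALB-RAG after OVA lay below those of BALB/c after OVA. The ratio is a description with no test, and it also depends on how linear the array is at the level of Sftpc.

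Members followed one another over the 16 arrays. Pearson's r was 0.874 between Sftpa1 and Sftpd, 0.862 between Sftpa1 and Napsa, 0.844 between Sftpd and Napsa, 0.816 between Sftpa1 and Sftpc, 0.713 between Sftpc and Napsa and 0.609 between Sftpc and Sftpd. On deviations from group means the same pairs gave 0.886, 0.842, 0.769, 0.761, 0.703 and 0.711. The arrays share the groups and the split between replicates, and these values are a description. The tested genes outside the set with the most similar pattern were Spcs2, Lyz2, Cdk9 and Klhdc4 for Sftpa1 (r from 0.861 to 0.875) and Ddit3, Stat6, Dstn and Casp12 for Sftpc (0.821 to 0.884). For Sftpd they were H13, Npc2, Tspan1 and Ms4a6d (0.915 to 0.935), and for Napsa Spcs2, Pnp, Mvb12a and Psmd8 (0.944 to 0.956).

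Type II cell markers were read as a list that holds the members too. Of 25 listed genes 17 were tested, the 4 members included, so the members enter each count and median of this list. Over all tested genes 15.5% were called after OVA in BALB/c (8.73% higher, 6.78% lower). Counts in this list and those below are to be read beside such shares. After OVA in BALB/c 2 rose and 1 fell, with a median difference of 0.04: Sftpd, Fabp5 (a fatty acid-binding protein also made by macrophages) by 1.24 ± 0.35, and Cd36 (a fatty acid and scavenger receptor) by -0.44 ± 0.14 (SE, limma adjusted p = 0.0229 for Fabp5 and 0.0446 for Cd36). Abca3, which pumps lipid into lamellar bodies, differed by -0.11 ± 0.18, and Slc34a2, the phosphate transporter of type II cells, by -0.01 ± 0.11 (SE). In the line labelled BALB-RAG limma called 0 of 17 after OVA, beside 0.165% of all genes, and the median of 0.10 was the value of Sftpc itself. An unadjusted limma p under 0.05 was found for 2 of 17 (Sftpd and Hc), beside 7.72% of all genes.

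Over the same 17 type II markers, members included, the median difference between the arrays labelled BALB-RAG and BALB/c after OVA was -0.18. That median was the value of Sftpa1 itself. Against 12.1% of all genes lower and 11.6% higher, 5 of these markers were lower on the arrays labelled BALB-RAG and 0 higher. Beside Sftpd and Napsa these were Hc (complement C5) by -1.08 ± 0.12, Egfl6 (a secreted protein with EGF repeats) by -1.29 ± 0.23 and Cxcl15 (lungkine, a chemokine of mouse lung epithelium) by -0.52 ± 0.12 (SE, limma adjusted p = 1.69e-05, 0.00075 and 0.0046). After PBS 1 of 17 was lower, Hc by -0.46 ± 0.12 (SE, limma adjusted p = 0.0482), where 1.94% of all genes were lower. The median was -0.27, the value of Sftpc itself. The unadjusted limma p was under 0.05 for 8 of 17, with Sftpa1, Sftpc and Sftpd among them, beside 15.9% of all genes. The summed intensity of the 13 type II markers outside the set ran from 40500 to 47738 with the label BALB-RAG after OVA, against 49799 to 56824 in BALB/c after OVA, without overlap. After PBS it ran from 41313 to 47126 with the label BALB-RAG, against 47068 to 55158 in BALB/c, where the highest and lowest arrays just overlapped. Within BALB/c it ran from 49799 to 56824 after OVA, against 47068 to 55158 after PBS, with overlap. Lyz2, which the macrophage list below also holds, is among these 13 genes, with a mean log2 of 13.91 over the 16 arrays. The sum is on the linear scale, so its brightest genes weigh most, and the share of Lyz2 in it was not separated. The part of this sum in the differences of Sftpd and Napsa was not tested.

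**Figure D4:**
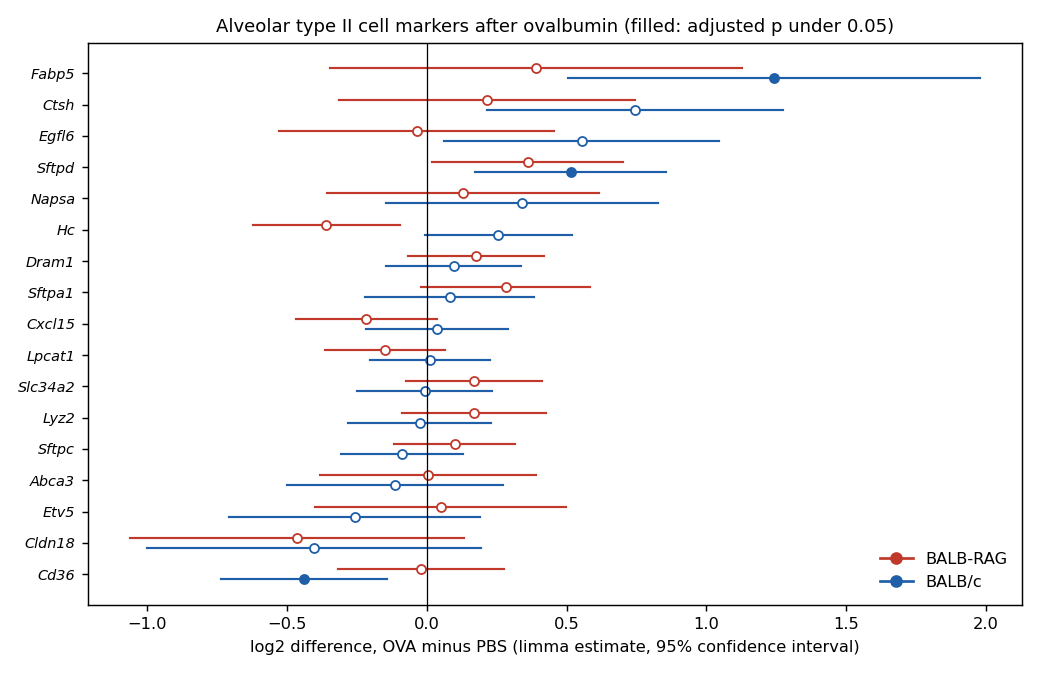
Log2 differences after OVA for the 17 tested type II cell markers with 95% confidence intervals from limma, for the arrays labelled BALB-RAG (red) and BALB/c (blue), filled where the adjusted p was under 0.05. In BALB/c Fabp5 (1.24), Sftpd (0.52) and Cd36 (-0.44) are filled, and no marker is filled for BALB-RAG.

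Markers of other cell types moved with the exposure in BALB/c. All 7 tested goblet cell markers rose (of 11 listed, median 2.73), and their summed intensity over 8 placed genes ran from 12161 to 16317 after OVA, against 217 to 428 after PBS. Among them Clca1, a secreted protein of mucous cells, averaged 13.45 ± 0.20 after OVA and 4.56 ± 1.08 after PBS (SD, n = 4 each). Macrophage markers rose in 5 of 9 tested (of 18 listed, median 1.17), with sums of 31052 to 38495 after OVA, against 19020 to 27486 after PBS. Lyz2 enters both these sums and those of the type II markers. Club cell markers, of airway cells that also make collectins, rose in 1 (Muc5b, which the goblet list also holds) and fell in 6 of 9 tested (median -0.81). Sums over the 10 placed club genes ran from 20234 to 29091 after OVA, against 37965 to 47076 after PBS.

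Nor did these sums overlap between the lines after OVA. Goblet markers summed to 276 to 426 with the label BALB-RAG, below the 12161 to 16317 of BALB/c. Macrophage markers summed to 26833 to 30365, against 31052 to 38495 in BALB/c, and club markers to 44895 to 50747, against 20234 to 29091. Single markers did not all go the way of the sums. With the label BALB-RAG, 5 of 9 tested macrophage markers were called lower and 2 higher. Of 9 tested club markers 5 were called higher and 1 lower, and all 7 tested goblet markers were lower. Of all genes 12.1% were lower and 11.6% higher. The part of these cell types in the values of Sftpd and Napsa was not tested.

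Of 23 tested genes of surfactant protein processing and lipid synthesis, 1 rose and 3 fell after OVA in BALB/c, with a median of 0.00. Of all genes 8.73% rose and 6.78% fell. Npc2, a cholesterol carrier found in lamellar bodies, rose by 0.55 ± 0.15. Aldh1a1 (retinal dehydrogenase) fell by 0.81, Lpin1 (a phosphatidate phosphatase) by 0.59 and Scd2 (a fatty acid desaturase) by 0.46 (limma adjusted p = 0.0209, 0.0118, 0.0447 and 0.028). The club cell list above, where 6 of 9 tested markers fell, also holds Aldh1a1, so it enters the counts of both lists. The lines after OVA differed in 5 of 23, where 23.8% of all genes were called: 4 were higher (Aldh1a1, Chpt1, Elovl6 and Lpin1, by 0.80 to 1.17) and 1 lower (Elovl1, by -0.98). After PBS Chpt1, a choline phosphotransferase, and Elovl6, a fatty acid elongase, were higher by 0.73 and 1.75, where 1.97% of all genes were higher. Limma called 0 of 23 after OVA on the arrays labelled BALB-RAG, where 2 had an unadjusted p under 0.05, beside 7.72% of all genes.

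Of 7 tested aspartic proteases and cathepsins, 3 rose after OVA in BALB/c and 0 fell, with a median of 0.74, where 8.73% of all genes rose and 6.78% fell. The risen genes were Ctsb by 1.46 ± 0.20, Ctsc by 0.92 ± 0.17 and Ctsz by 1.55 ± 0.30 (SE, limma adjusted p = 0.000124, 0.00142 and 0.00236). These lysosomal cathepsins are abundant in macrophages. Ctsh, the cathepsin that with napsin A trims surfactant protein precursors, differed by 0.74 ± 0.25 (SE, limma adjusted p = 0.056) and was not called. On the arrays labelled BALB-RAG limma called 0 of 7 after OVA, with a median of 0.14, beside 0.165% of all genes. With the label BALB-RAG after OVA, Ctsb, Ctsc and Ctsz were lower (-1.27, -1.13 and -1.62) and Bace1 was higher (0.53) than in BALB/c. In that comparison 12.1% of all genes were lower and 11.6% higher.

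Of 10 tested genes of surfactant clearance and the GM-CSF axis, by which alveolar macrophages take up and break down surfactant, 4 rose after OVA in BALB/c and 0 fell, with a median of 0.93. Of all genes 8.73% rose and 6.78% fell in that comparison. Csf2rb and Csf2ra, the chains of the GM-CSF receptor, rose by 1.56 ± 0.29 and 1.37 ± 0.33. Msr1, a scavenger receptor, rose by 1.26 ± 0.28 and Lipa, the lysosomal acid lipase, by 1.41 ± 0.40 (SE, limma adjusted p = 0.00166, 0.00932, 0.00621 and 0.0251). Csf2ra, Msr1 and Lipa were lower on the arrays labelled BALB-RAG than in BALB/c after OVA (-1.46, -1.28 and -1.37), where 12.1% of all genes were lower. The macrophage sums given above moved with these genes in BALB/c, and their part was not tested.

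Of 7 tested collectins and receptors of surfactant collectins, 2 rose and 1 fell after OVA in BALB/c, with a median of 0.17, beside 8.73% of all genes higher and 6.78% lower. Sirpa, an inhibitory receptor of myeloid cells that binds the heads of SP-A and SP-D, rose by 1.01 ± 0.16. Cd14, a co-receptor for endotoxin, rose by 1.02 ± 0.28, and Cd93, a C-type lectin-like receptor, fell by 0.71 (SE, limma adjusted p = 0.000436, 0.0196 and 0.0182). Comparing the lines after OVA, Sirpa, Tlr2 and Tlr4 were lower (-0.70, -0.83 and -0.52), and after PBS Tlr4 was lower (-0.74). Of all genes 12.1% were lower after OVA and 1.94% after PBS.

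Among 16 tested transcription factors of surfactant genes, 0 rose and 2 fell after OVA in BALB/c, with a median of -0.13, beside 8.73% of all genes higher and 6.78% lower. Foxa1, a forkhead factor of lung epithelium, fell by 0.69 and Cebpd, a factor of acute phase and surfactant gene control, fell by 1.40 (limma adjusted p = 0.0113 and 0.00142). Nkx2-1, whose motif core is marked in the promoter above, differed by -0.40 ± 0.26 (SE, limma adjusted p = 0.371). Cebpd was the 1 list member called in the opposite direction on the arrays labelled BALB-RAG after OVA, where it rose by 1.52 ± 0.26 (SE, limma adjusted p = 0.0213). Of all genes 0.137% were called higher there. The difference of its responses was 2.92 ± 0.36 (SE, limma adjusted p = 0.000131), 1 of 2 list members called higher in that comparison, beside 3.86% of all genes. After PBS Cebpd was the 1 list member called lower with the label BALB-RAG, by -1.67 ± 0.26 (SE, limma adjusted p = 0.00189), beside 1.94% of all genes. After OVA, Cebpd, Foxa1, Gata6, Nfib and Sp1 were higher on the arrays labelled BALB-RAG than in BALB/c by 0.53 to 1.25, while Sftpd and Napsa were lower. In that comparison 11.6% of all genes were higher and 12.1% lower.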

How the data were processed

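Whole lung RNA (6 µg in total, TRIZOL) was hybridised to 16 Affymetrix arrays, per the labels' protocols. The deposited table holds intensity values on a linear scale (2.32 to 35181) made with GCRMA, per the submitters' processing notes. No GCRMA version is given in the sources used here. Median intensity per array was 18.2 to 20.5, with 52.1 to 53.5% of values over log2 4. With 4 arrays per group, precision is limited by their number. Log2 was taken of the deposited intensity with no further normalisation.

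Many labels in the table do not stand beside their own values. In 3 stretches values were taken 64 rows above, 47 rows below and 16168 rows below the label, and other labels were dropped. The third stretch gave a median same-gene correlation of 0.61 (445 pairs). A shift of 47 rows above, as first proposed for the second stretch, put its members at unrelated values; 47 below was chosen after the data were examined, from correlations of same-gene probe sets that use no group, and scored best of all shifts from 200 above to 200 below. The proposed shift is given as an alternative. Whether the displacement arose before or after deposit is unknown.

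Symbols came from the platform annotation (13146 placed labels with 1 symbol; 366 with several were not used), and RefSeq GRCm38.p6 changed 0 of them. Genes above log2 4 on at least 4 arrays were kept, by the probe set with the highest mean. The 4 group means over all 16 arrays were compared by limma (3.58.1, R 4.3.3; 12 residual degrees of freedom, empirical Bayes, Benjamini-Hochberg adjustment over 7276 genes, threshold 0.05). The fit was tested on simulated data. Members and gene lists were chosen with earlier results of these data known. Named genes are the members, up to 5 called genes of a list by smallest p, and the 4 genes closest to each member by Pearson's r. Abca3, Slc34a2, Ctsh and Nkx2-1 were picked beside them after their values were seen, as was the split between replicates. Cd3d, Igha and Clca1 are context of the titles. Alternatives covered the filter, the probe set kept, centring, a floor at log2 4, blocks, subsets of arrays and the labels.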

Additional observations from a re-analysis of the deposited data

How the results depend on the processing

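In the fit without a block, the calls of Sftpd and Napsa are near the threshold, and their directions held more often than their calls. With the split between replicates as a block, a split picked after the values were seen, the limma adjusted p was lower. It was 0.0111 for Sftpd in BALB/c, and 0.00965 for Sftpd and 0.000764 for Napsa between the lines after OVA. The fits below are without that block unless it is named. After OVA in BALB/c, where 1 member was called, the count was 0 on replicates 1 and 2 alone, with only the groups compared in the fit (Sftpd limma adjusted p = 0.068), after a further quantile normalisation (0.0648), and with all rows of the table (0.0566). All genes were called in 14.8, 12.6, 15.6 and 13.7% in those fits, against 15.5%. Between the lines after OVA, where 2 were called, it was 0 on replicates 3 and 4 alone, where 9.52% of all genes were called against 23.8%, and 1 with no filter, with every probe set and with all rows (Napsa limma adjusted p = 0.0602, 0.0512 and 0.0582, with 17.5, 22.5 and 22.2% of all genes called). The counts were also 0 with the labels as deposited, where only Sftpc and Napsa passed the filter and were tested, and with labels 47 rows above, where only Sftpc was, so those zeros are not lost calls of Sftpd. Of all genes, the labels as deposited gave 12.8% called after OVA in BALB/c and 21.4% between the lines after OVA. Labels 47 rows above gave 14.7 and 23.3%. Between the lines after PBS, where 0 were called, it was 1 with the split between replicates 1 and 2 and replicates 3 and 4 as a block, which called 8.73% of all genes against 3.9%. Leaving out single arrays gave counts of 0 to 1 after OVA in BALB/c, where 10.9 to 16.1% of all genes were called. Between the lines after OVA the counts were 0 to 2, where 18.3 to 24.7% of all genes were called.

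The sign turned for Sftpa1 after OVA in BALB/c on replicates 1 and 2 alone (-0.069) and without replicate 4 of BALB/c after PBS (-0.0062; range without single arrays -0.01 to 0.16). It also turned for Napsa after OVA on the arrays labelled BALB-RAG without replicate 3 of the PBS group (-0.045; range -0.04 to 0.23), for Sftpc between the lines after OVA with quantile normalisation (0.090), and with the labels as deposited for Napsa after OVA in BALB/c (-0.16), Sftpc after OVA on the arrays labelled BALB-RAG (-0.0097) and Napsa in the difference of responses (0.35). None of these was a called difference. Median centring kept the calls.

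Deviations from group means correlated by 0.0253 to 0.497 (median 0.300) between same-numbered arrays of different groups, by 0.123 to 0.475 (median 0.314) between different numbers on the same side of the split, and by -0.461 to -0.0156 (median -0.316) across it. Values thus followed the split rather than the number, and the numbers were not taken as pairs. With the replicate number as a block, no call of a member changed, while 24.2% of all genes were called after OVA in BALB/c and 33.7% between the lines after OVA (member limma adjusted p = 0.0132 for Sftpd in BALB/c, and 0.0117 for Sftpd and 0.00177 for Napsa between the lines after OVA). The causes of these changes were not tested. The alternative with labels 47 rows above, and the reading of that stretch at 47 rows below, were chosen after seeing the data.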

Other observations

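Markers of alveolar type I cells, the flat cells that share the alveolar wall with type II cells, were called lower in 4 of 10 tested after OVA in BALB/c and higher in 0, with a median difference of -0.52. They were Rtkn2 by -1.03 ± 0.16, Cav2 (a caveolin) by -0.74 ± 0.14, Akap5 (a kinase anchor) by -1.09 ± 0.31 and Vegfa (an endothelial growth factor) by -0.65 ± 0.17 (SE, limma adjusted p = 0.000398, 0.00172, 0.0267 and 0.0135). The same 4 genes were higher on the arrays labelled BALB-RAG than in BALB/c after OVA, by 1.21 for Akap5, 0.76 for Cav2, 1.28 for Rtkn2 and 0.56 for Vegfa. Of all genes 6.78% fell after OVA in BALB/c, and 11.6% were higher between the lines after OVA. These comparisons share the BALB/c arrays after OVA. Limma called 0 of 10 after OVA on the arrays labelled BALB-RAG, where 1 had an unadjusted p under 0.05, beside 7.72% of all genes.

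Other lists also changed after OVA in BALB/c, some down and some up, where 8.73% of all genes were called higher and 6.78% lower. Of 12 tested endothelial, smooth muscle and cardiac markers, 3 were lower and 0 higher after OVA in BALB/c, with a median of -0.73. The summed intensity of the 13 placed genes of that list ran from 9188 to 15638 after OVA, against 16317 to 17758 after PBS, without overlap. Of 11 T cell markers 6 were higher (median 1.32), and of 10 B and plasma cell markers 5 were higher (median 1.38), with 0 lower in either list. The median over 7 eosinophil and neutrophil markers was -0.40, with 0 called in either direction. This list pools both cell types, which were not read apart. For 1 of the 7 every OVA array lay above every PBS array, beside 10.4% of all genes. Sums over the 10 placed genes of the eosinophil and neutrophil list overlapped, at 1151 to 2109 after OVA and 682 to 6541 after PBS. Of 6 ciliated cell markers 1 was lower (Tppp3, by -1.11). The part of these lists in any difference of a surfactant gene was not tested.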
